A study of Mus musculus with 36 samples.

Results

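C1q-negative MHC class II cells were cells of the mouse submandibular gland that held transcripts of the antigen-presenting machinery but none of the complement genes that most class II cells of this gland express. They were selected on their RNA. A cell barcode with at least 100 genes and under 15% mitochondrial transcripts was a member if it had at least 3 unique molecular identifiers (UMIs, counted transcripts) of Cd74 and a UMI in at least 2 of H2-Aa, H2-Ab1 and H2-Eb1. It also had to lack any UMI of C1qa, C1qb and C1qc, of the T cell gene Cd3e, of the epithelial keratins Krt14 and Krt8, of the fibroblast gene Col1a1 and of the endothelial gene Pecam1, and to hold a UMI in fewer than 2 of Mmp12, Spp1 and Gpnmb. This left 252 of 25993 cells, 192 from Drop-seq and 60 from CITE-seq. Cells that met the other clauses but held a C1q UMI numbered 2137 and are called C1q-positive class II cells here, while 59 class II cells held at least 2 of Mmp12, Spp1 and Gpnmb and 23545 cells fell outside the class II gate.

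Drop-seq, in which single cells are captured in droplets with barcoded beads, was applied to 26 glands, with 6 control and 7 double-mutant glands from P40 mice (P, postnatal day) and the same numbers from P90 mice. CITE-seq, which adds antibodies carrying DNA tags so that surface proteins are counted in the cells whose RNA is read, was applied to 2 control and 2 double-mutant glands at P70. Every mouse had a C57BL/6 background and carried K14-Cre, which acts in keratin 14-expressing epithelium, and the Cre-inducible R26-EYFP reporter. Double-mutant mice additionally carried the floxed β-catenin gain-of-function allele and the floxed Bmpr1a loss-of-function allele and develop salivary gland tumors, so the mutations are directed to epithelium and not to the immune cells described here. Drop-seq cells were sorted alive and fixed in methanol, whereas CITE-seq cells were processed fresh.

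MHC class II molecules are pairs of an α and a β chain that present peptides to CD4 T cells. Cd74, the invariant chain, occupies the groove of new class II molecules until cathepsins such as cathepsin S degrade it, after which H2-DM loads peptides and H2-O restrains H2-DM. Dendritic cells, B cells, some monocytes and many macrophages carry class II, and tissue macrophages are a known source of C1q, so that class II cells without C1q can include dendritic cells. Conventional dendritic cells are divided into a cross-presenting type (DC1, marked by Xcr1 and Clec9a), a CD4 T cell-directed type (DC2, marked by Cd209a and Clec10a in mice) and a mature state that expresses Ccr7, the receptor that guides cells to lymph nodes.

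The promoters of class II genes share short motifs, of which the Y box holds an inverted CCAAT sequence. The stretches before the transcription start of an α chain (H2-Aa), of a β chain whose level differed between genotypes (H2-Eb1), of a subunit of the peptide loader (H2-DMb2) and of a subunit of its inhibitor (H2-Oa) are given to show this element in genes measured below, in lower case with TGATTGG in capitals (RefSeq, GRCm38.p6, 5′ to 3′ on the strand of the gene).
H2-Aa promoter, chr17:34287824-34287973, minus strand: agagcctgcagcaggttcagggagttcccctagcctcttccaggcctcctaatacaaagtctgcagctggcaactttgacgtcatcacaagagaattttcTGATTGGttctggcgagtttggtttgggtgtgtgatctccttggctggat
H2-Eb1 promoter, chr17:34305706-34305866, plus strand: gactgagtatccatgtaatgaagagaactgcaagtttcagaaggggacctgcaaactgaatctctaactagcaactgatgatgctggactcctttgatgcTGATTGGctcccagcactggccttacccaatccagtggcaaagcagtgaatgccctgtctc
H2-DMb2 promoter, chr17:34145057-34145248, plus strand: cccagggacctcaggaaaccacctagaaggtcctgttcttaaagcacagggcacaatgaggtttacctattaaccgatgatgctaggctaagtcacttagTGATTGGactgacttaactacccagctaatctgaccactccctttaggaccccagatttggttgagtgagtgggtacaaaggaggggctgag
H2-Oa promoter, chr17:34092234-34092378, plus strand: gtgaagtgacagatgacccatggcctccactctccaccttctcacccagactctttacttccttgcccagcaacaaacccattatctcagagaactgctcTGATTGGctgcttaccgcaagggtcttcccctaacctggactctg
TGATTGG was searched on both strands from 250 bases before to 50 bases after each start. It was found in the promoters of H2-Aa, H2-Eb1, H2-DMb1, H2-DMb2, H2-Oa and H2-Ob, and 7.82% of the 32851 promoters of this length in the table held it. Neither of the H2-DMa entries held these letters in this window. Promoters of H2-Ab1 and Ciita are named only. A match is a description of the letters and not a measured site.

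Per gland, Drop-seq tables held 777537 to 7013325 UMIs in 606 to 1209 cells that passed the limits, and CITE-seq tables held 1136442 to 2459694 UMIs in 521 to 740 cells. The median member held 551.5 UMIs (range 155 to 11007), against 669 UMIs in C1q-positive cells and 1660 UMIs in cells outside the gate. In Drop-seq the median was 935 UMIs in the 41 control members and 453 UMIs in the 151 double-mutant members. Of the 25993 cells, 21 barcodes occurred in more than 1 library, among them the barcode of 1 member. Before the results, 3 Drop-seq libraries stood apart. Double-mutant P40 replicate 1 and double-mutant P90 replicate 5 went against their sex labels by Xist and Y-linked transcripts, and double-mutant P90 replicate 4 had the highest share of ribosomal protein transcripts (8.21%, next 7.38%). Each of the 4 CITE-seq libraries held cells with Xist only (107 to 143 cells) and cells with Y-linked transcripts only (20 to 80 cells). Sex was therefore not compared in CITE-seq. Whether these libraries hold cells of another gland, and so of the other genotype, was not tested.

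The rule fixed the presence of class II and the absence of C1q, and these values are given as a description. Members held a median of 9 Cd74 UMIs (highest 72), 4 of H2-Aa, 4 of H2-Ab1 and 2 of H2-Eb1. H2-Ab1 was found in 96.0% of members, H2-Aa in 94.8% and H2-Eb1 in 76.6%, and all 3 chains were found in 170 members. Near the Cd74 threshold, 26 members held 3 UMIs and 29 held 4, while 19 cells that met every other clause held 2. On the other side of the C1q threshold, 196 class II cells held 1 C1q UMI and 224 held 2. At this depth a cell that expresses C1q can show none, and the part of such cells among members was not tested. Without the clause on the 5 lineage genes 273 cells would have been members. Krt8 was found in 10 of these, Pecam1 in 5, Krt14 in 4, Col1a1 in 3 and Cd3e in 0.

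Members differed from C1q-positive class II cells in dendritic cell and macrophage transcripts, and also in immunoglobulin and secretory transcripts, which are given further below. Because C1q absence chose the members, these levels, as CPM (UMI counts scaled to the same total in each class) summed over all cells of a class, are described without a test. Cd209a, which encodes a lectin of DC2 cells, had 32 UMIs in 16 members (132 CPM) and 1 UMI in all C1q-positive cells (0.517 CPM), a ratio of 256 with a 95% counting interval of 42.8 to 10428. The chemokines Ccl17 and Ccl22, which attract T cells, stood at 269 and 211 CPM against 2.58 and 14.5 CPM. Ccr7 stood at 223 CPM in members (54 UMIs in 19 cells from 11 glands) and 8.78 CPM in C1q-positive cells. For comparison, cells outside the gate, which were deeper, held a UMI of Ccr7 in 0.0764%, of Ccl17 in 0.115% and of Cd209a in 0.0170% of cells. They include cells with Cd3e and class II cells with under 3 Cd74 UMIs, so they are not a clean background for these genes.

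All 12 genes of the mature CCR7 dendritic cell list were higher in members than in C1q-positive cells, with a median ratio of 13.3 and with Relb almost level (57.9 CPM in both), where the median over the 12148 genes found in both classes was 1.03. Of the 12 DC1 genes, 10 were higher. They included the chemokine receptor Xcr1 (53.8 against 3.62 CPM), Clec9a, the receptor for dead-cell actin (33.1 against 5.17 CPM), Wdfy4, needed for cross-presentation (99.2 against 16.5 CPM), and the lysosomal amidase Naaa (265 against 62.5 CPM). Of the 13 DC2 genes 9 were higher, among them Clec10a (70.3 against 11.9 CPM) and the killer lectin receptor Klrd1 (86.8 against 4.65 CPM), while Fcer1g (529 against 1464 CPM), Sirpa, Clec4a2 and Itgam were lower, so that the summed list was 1439 CPM in members and 2126 CPM in C1q-positive cells. Genes shared by dendritic cells were higher in 11 of 13, including the cytokine receptor Flt3 (33.1 against 2.07 CPM), while Haao (2 UMIs in members, ratio 0.471, counting interval 0.0548 to 1.84) and the protease inhibitor Cst3 (6309 against 6771 CPM) were lower. Cst3 stood at 799 CPM in cluster 7, so its small difference is not read as a lower level in the other members. These genes were sparse, with 8 UMIs of Flt3, 13 of Xcr1 and 8 of Clec9a over all 252 members.

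None of the 16 macrophage genes was higher in members, and Folr2 was at 0. Apolipoprotein E (Apoe) stood at 1344 CPM against 9475 CPM, Tmem119 at 8.27 against 173 CPM (2 UMIs, ratio interval 0.00578 to 0.174), the chemokine receptor Cx3cr1 at 49.6 against 449 CPM, Ms4a7 at 86.8 against 857 CPM and the growth factor receptor Csf1r at 132 against 646 CPM. Inflammatory mediators were also mostly lower, with 14 of 19 chemokine and cytokine genes lower, such as Il1a at 70.3 against 771 CPM and Cxcl2 at 1894 against 7864 CPM. Of the interferon-stimulated genes 8 were higher and 8 lower. The plot of gene levels in both classes shows these groups side by side.

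**Figure D1:**
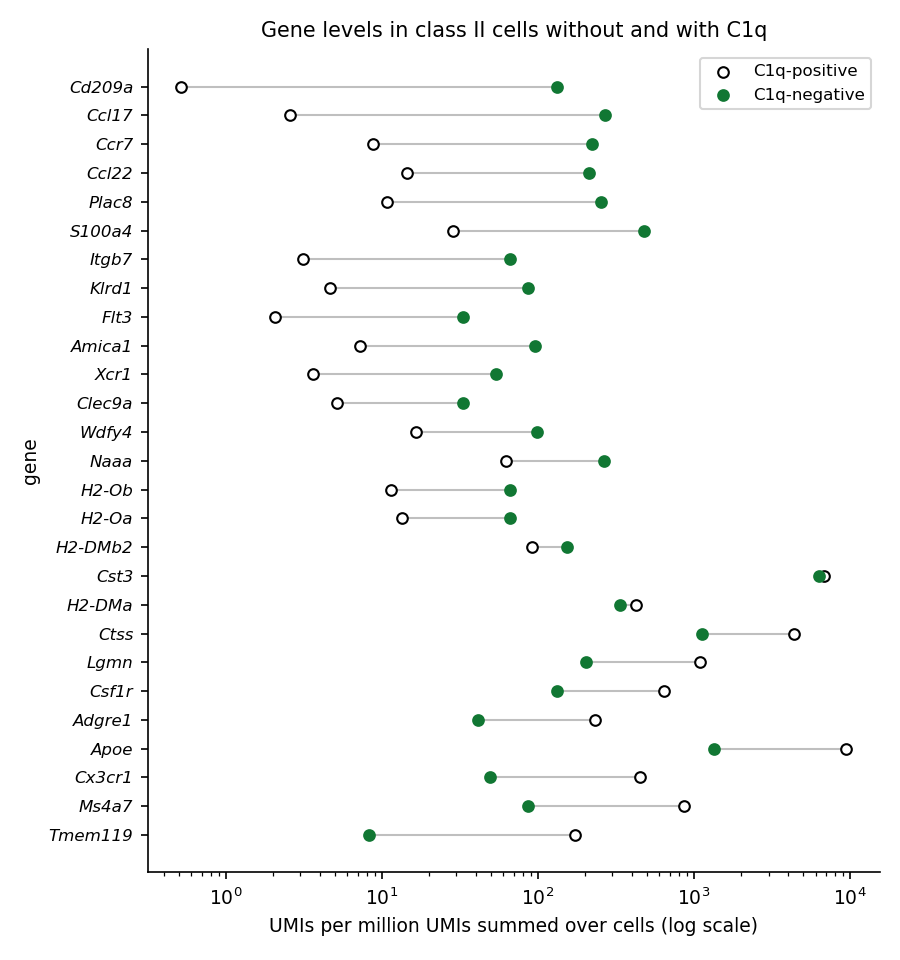
Levels of 27 genes in class II cells without C1q (filled) and with C1q (open), as CPM summed over 252 and 2137 cells on a log axis. The genes from Cd209a to Naaa lie to the right in C1q-negative cells. Most are dendritic cell genes, but Plac8 and S100a4 belong to the monocyte list. Genes from Ctss to Tmem119, mostly of the macrophage list, lie to the left, with Cst3 and H2-DMa close together in both.

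Within the class II pathway itself the members were split, with 8 of 16 genes higher and 8 lower. Both chains of the H2-O inhibitor, which is restricted to B cells and dendritic cells, were higher, H2-Oa at 66.2 against 13.4 CPM and H2-Ob at 66.2 against 11.4 CPM. The loader chains differed less, with H2-DMa at 335 against 423 CPM, H2-DMb1 at 306 against 354 CPM and H2-DMb2 at 153 against 91.9 CPM. The proteases that trim the invariant chain and antigens were lower, Ctss at 1120 against 4368 CPM and Lgmn at 203 against 1093 CPM. Of the 13 lysosome and cathepsin genes 11 were lower. The co-stimulatory genes Cd86 (223 against 319 CPM) and Cd83 (827 against 1787 CPM) were also lower. The transactivator Ciita, the master switch of class II genes, was found in 6 members with 6 UMIs (24.8 against 21.7 CPM).

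Other cell types that could enter the gate were checked by their markers. Among the B cell genes, Pax5, Fcmr, Cr2, Blk and Ighd were at 0 of 252 members, which allows a share of up to 1.19%, and Ms4a1, which encodes CD20, had 4 UMIs in 2 members. Of the 18 genes of the list, however, 10 were higher and 5 lower in members, with a median ratio of 5.58, and 45 members held at least 1 of them. The summed level of the list was 471 CPM in members (range over glands 0 to 5579 CPM) and 234 CPM in C1q-positive cells. Part of this lay in the plasma cell-like cluster 7, described below, which had Cd79b, Ly6d and Ighm as markers. Cd79a was found in 4 of its 12 cells and in no other cluster. The list was not taken again without these cells. Ccr9, Cox6a2 and Spib of the plasmacytoid list were at 0, and Siglech was lower in members (41.3 against 127 CPM). The Langerhans cell gene Cd207 had 1 UMI in members (ratio 0.0702, counting interval 0.00176 to 0.399). Plasma cell genes were the exception, since Igkc, Igha and Jchain stood at 62807, 45984 and 18010 CPM against 2110, 2218 and 628 CPM. This rested on 12 cells, described below as cluster 7, that held 21.7% of the UMIs of all members. Without them the ratios of Igkc, Igha and Jchain were 0.0926, 0.0929 and 0.0925. Ly6c2 was set largely by the same cells, with a ratio of 30.3 with them and 3.11 without. Secretory transcripts were found everywhere, Spt1 in 98.0% of members, 99.2% of C1q-positive cells and 99.4% of cells outside the gate. Their levels differed, since the acinar and ductal secretory list summed to 55865 CPM in members (range over glands 1381 to 557655 CPM) and 25307 CPM in C1q-positive cells. Of its 20 genes 12 were higher and 7 lower (median ratio 1.48). Spt1 stood at 198144 CPM in cluster 1, described below, and 15229 CPM in the other members. The cause was not tested.

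Grouping of the members by their own expression gave 7 clusters. Genes that define a cluster are not a test of it, and the clusters differed in depth. Cluster 2 (38 cells) held the DC2 genes Cd209a (18.4% of its cells), Clec10a (10.5%) and Mgl2 (10.5%) and was led by Iigp1 and Tnfrsf1b, and was called DC2-like from 3 markers. In cluster 2 these markers rested on 7, 4 and 4 cells. The monocyte-like cluster 6 held them in like shares of cells (12.9%, 9.68% and 12.9%). Cluster 6 also had 3 other genes of the DC2 list as markers (Clec4b1, Clec4a2 and Fcer1g). It thus met the same minimum of 3 markers for the DC2 name, and the 2 clusters are not set apart by it. Cluster 5 (34 cells from 16 glands) was mature CCR7 dendritic cell-like by 9 of 12 markers. It held Ccl22 in 52.9%, Ccr7 in 41.2%, Ccl17 in 38.2%, the interleukin 12 subunit Il12b in 32.4% and the actin-bundling protein Fscn1 in 17.6% of cells. Cluster 6 (31 cells) was monocyte-like by 6 of 12 markers, with the lysozyme Lyz2 in 64.5%, S100a4 in 45.2% and fibronectin, Fn1, in 38.7% of cells, and was led by Retnla and Lyz1. Cluster 3 (59 cells) was macrophage-like by 7 of 16 markers despite the absence of C1q, with the chemokine Ccl4 in 84.7%, Cxcl2 in 69.5%, Apoe in 66.1% and Ms4a7 in 23.7% of cells. Its median depth of 435 UMIs was the lowest of the 7.

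Cluster 7 (12 cells from 8 glands, median 4200 UMIs) was plasma cell-like by 7 of 8 markers, with Jchain and Igha in all 12 cells and Mzb1 in 91.7%. Clusters 1 and 4 were led by secretory genes and were left without a name, although 9 and 3 genes of the acinar and ductal secretory list met the marker limits in them. Cluster 1 (50 cells from 23 glands) was led by Dcpp3, Dcpp2, Dcpp1 and Prol1, yet 32% of its cells held Naaa, 28.0% the DC1 factor Irf8 and 8.0% Xcr1. Cluster 4 (28 cells) was led by Smgc and Muc19, which were found in only 5 and 4 of its cells. It drew 10 of its cells from 1 gland, and held Naaa in 28.6% and Irf8 in 21.4% of cells. At a lower resolution, which gave 5 clusters and so joined some, each of clusters 1, 2, 3, 4 and 7 stayed whole, while cluster 6 kept 51.6% of its cells in 1 group. At a higher resolution, which gave 12 clusters, clusters 4 and 7 kept 96.4% and 100% of their cells in 1 group while cluster 1 kept 38.0%, the mature CCR7 cluster 5 47.1%, cluster 6 51.6%, cluster 2 60.5% and cluster 3 78.0%.

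**Figure D2:**
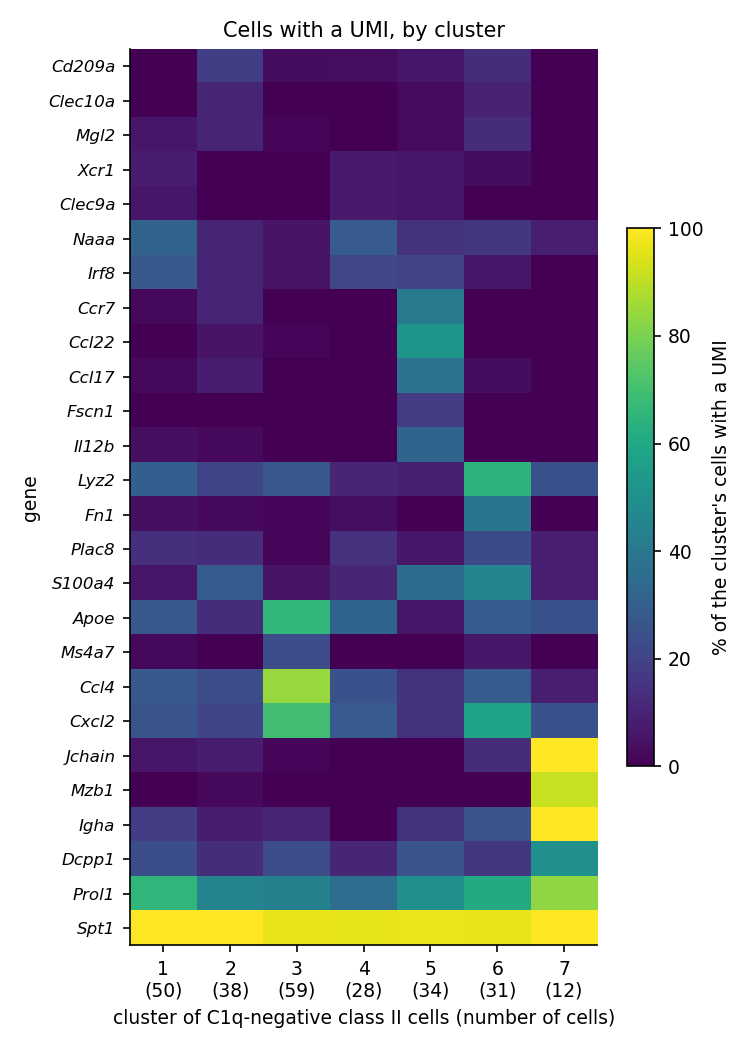
Percent of the cells of each of the 7 clusters (columns, with the number of cells) that held a UMI of each gene (rows), on a color scale from 0 to 100%. Ccr7, Ccl22 and Ccl17 stand out in cluster 5, Lyz2 and Fn1 in cluster 6, Ccl4 and Apoe in cluster 3 and Jchain in cluster 7, while Spt1 is near 100% in all columns, where median depth ranged from 435 UMIs in cluster 3 to 4200 UMIs in cluster 7 and was not matched.

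The counts of clusters by group are a description, since groups and glands with more members weigh more. The monocyte-like cluster had 0 of the 41 members of Drop-seq control glands, which allows up to 7.32%. It had 15 of the 151 members of Drop-seq double-mutant glands, and 2 of 20 and 14 of 40 members of CITE-seq control and double-mutant glands. The plasma cell-like cluster likewise had 0 of the 41 Drop-seq control members. It had 6 of the 151 Drop-seq double-mutant members, and 1 of 20 and 5 of 40 in CITE-seq. Of the 31 monocyte-like cells, 8 came from 1 gland. Mature CCR7 dendritic cell-like cells were found in every group, with 4 of 41 and 19 of 151 in Drop-seq control and double-mutant glands. In CITE-seq they were 7 of 20 and 4 of 40. Whether these shares differ between groups was not tested. Cluster 4 was found in 0 of the 60 CITE-seq members, which allows up to 5%. The limits given for a count of 0 treat pooled cells as independent and leave out the spread between glands, so no share is judged by them.

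Surface proteins in the 4 CITE-seq glands were not used by the rule. The 61 antibody tags were expressed as a percent of all tag counts of a class in a gland, and with 4 pairs an exact two-sided sign-flip test cannot go below p = 0.13. I-A/I-E, the class II protein, took 59.5% and 74.3% of tag counts in members of the control glands and 42.8% and 53.9% in those of the double-mutant glands. In C1q-positive cells it took 72.9% and 70.2%, and 61.3% and 54.6%, so members were higher in 1 of 4 glands (mean difference −7.09 points ± 10.6, SD, n = 4, exact p = 0.375). In cells outside the gate the mean was 1.05%. On the single cells, 9 of 11, 9 of 9, 21 of 23 and 14 of 17 members lay above the 95th percentile of the cells outside the gate.

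CD11c, the integrin of dendritic cells, took 5.95% and 1.78% of tag counts in members of control glands and 7.32% and 7.96% in those of double-mutant glands, against 1.71%, 1.41%, 3.0% and 3.85% in C1q-positive cells. Members were higher in 4 of 4 glands (mean difference 3.26 points ± 1.92, SD, exact p = 0.13, the smallest possible). CD103, an integrin of DC1 cells and intestinal DC2 cells, was also higher in 4 of 4 glands, with 3.21%, 0.373%, 2.55% and 1.56% against 0.108%, 0.150%, 0.205% and 0.273% (difference 1.74 ± 1.25, exact p = 0.13). The median CD103 count was 5.25 in members and 3.5 in C1q-positive cells on average, higher in 3 of 4 glands (exact p = 0.25), and in double-mutant gland 1 both medians were 4. Ly6C, found on monocytes and plasma cells, was higher in 4 of 4 glands, by 0.858 points ± 0.748 (exact p = 0.13). Its median count was 3.75 in members and 1.75 in C1q-positive cells on average, below the isotype controls in members (5.25 to 11). Single members reached 572 tags in cluster 7 and 390 in cluster 2, so a few cells weigh heavily in the percent. The transferrin receptor CD71, chosen after its values were seen, was lower in 4 of 4 glands (0.969% against 2.25%, exact p = 0.13), as were CD16/32, the Fc receptors of macrophages (0.294% against 0.538%, exact p = 0.13). In members CD16/32 lay within the range of the isotype controls (0.182% to 0.371%). Its median count was 9 in members and 10.9 in C1q-positive cells on average. CD11b was higher in 3 of 4 glands (2.58% against 1.58%, exact p = 0.25), but with centred log2 counts the difference was 0.0028 (exact p = 1), and CD172a in 3 of 4 (1.84% against 1.53%, exact p = 0.375).

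Several tags stayed at the level of the isotype controls, which took means of 0.182% to 0.371% of tag counts in members. CD45R stood at 0.0823% against 0.0894%, CLEC9A at 0.254% against 0.280%, XCR1 at 0.184% against 0.254% and CX3CR1 at 0.134% against 0.184% in C1q-positive cells. XCR1 and CX3CR1 were lower in members in 4 of 4 glands, at levels that the isotype controls also reached, and no difference in the proteins is read from them.

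By cluster, the median member of the mature CCR7 dendritic cell-like cluster held 5102 class II tags and 229 CD11c tags (11 cells). As a percent of a cell's tags, its median was 75.2% for class II, against 1.85% to 55.1% in the other clusters, and 3.90% for CD11c, against 5.50% in the monocyte-like cluster. Raw tags also move with the tag depth of a gland, whose median over members was 1501 to 5837. Monocyte-like members held medians of 81 CD11b tags and 83.5 CD172a tags (16 cells), against 4 and 21 in the mature cluster and 5 and 6 in the unnamed cluster 1. Cluster 1 had the highest median CD103 (53 tags, 11 cells), where the other clusters stood at 3 to 18. The plasma cell-like members held a median of 13 class II tags (6 cells from 3 glands, range 3 to 863), close to the medians of 6 to 14 tags in cells outside the gate, although each had at least 3 Cd74 UMIs. These are values of 6 to 16 cells each and were not compared by a test.

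**Figure D3:**
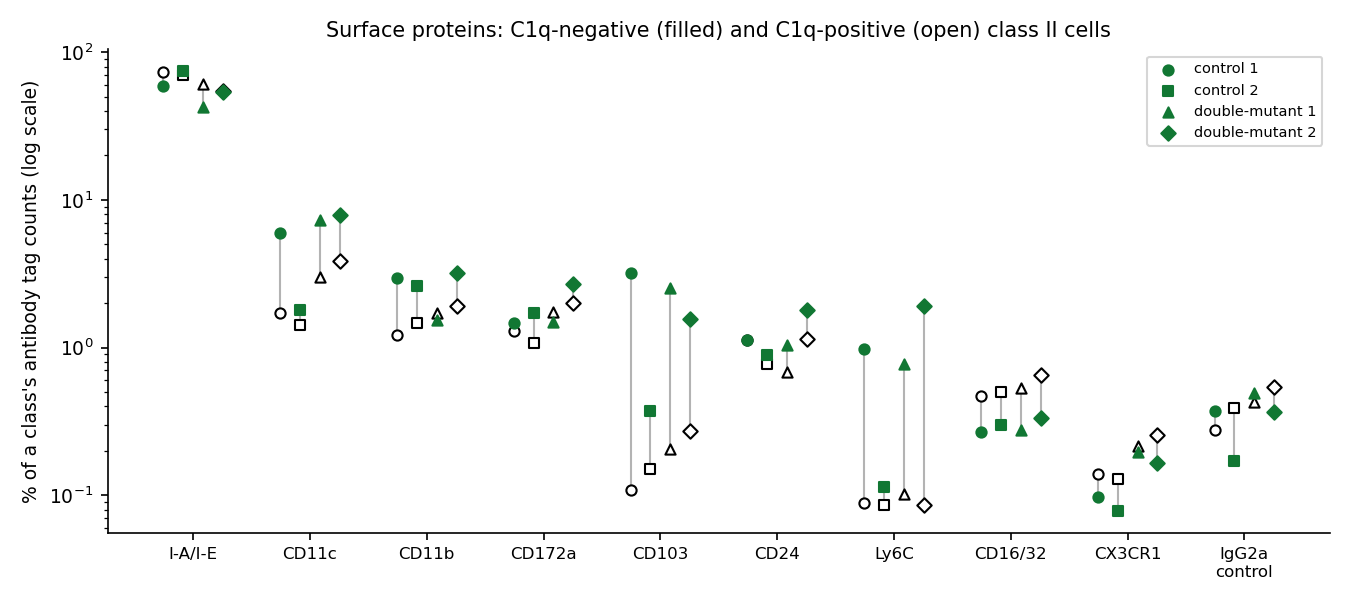
Percent of the antibody tag counts of a class, on a log axis, for 10 antibodies in the 4 CITE-seq glands (marker shapes), in C1q-negative (filled) and C1q-positive (open) class II cells joined by a line. Filled markers lie above open ones in all 4 glands for CD11c, CD103, CD24 and Ly6C and below them for CD16/32 and CX3CR1.

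The number of members differed between glands, from 0 to 30 in Drop-seq. As a share of the cells of a gland, control glands had 0%, a median of 0.303% and at most 0.806%, while double-mutant glands had 0%, a median of 1.05% and at most 3.51%. The groups overlapped, but 8 of 14 double-mutant glands lay above the highest control gland. Means were 0.387% ± 0.284 (SD, n = 12) in control and 1.27% ± 1.13 (SD, n = 14) in double-mutant glands, a difference of 0.878 points (two-sided permutation test, p = 0.0117). After Benjamini-Hochberg adjustment over the 7 share tests made, the permutation p was 0.0657 and did not pass 0.05. Both glands at 0 allow a low share. The count of 0 of 1147 cells in control P40 replicate 3 allows up to 0.262% and that of 0 of 1067 cells in double-mutant P90 replicate 1 up to 0.281%. Counting intervals were wide at these numbers, 2.28% to 5.13% for the highest gland (double-mutant P40 replicate 5, Clopper-Pearson, 95%), and cover counting error only.

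The direction was the same at both stages. At P40 the means were 0.203% ± 0.137 (n = 6) and 1.01% ± 1.17 (n = 7), an exact permutation p of 0.0280 (adjusted 0.0657), and at P90 0.571% ± 0.280 (n = 6) and 1.52% ± 1.11 (n = 7), an exact permutation p of 0.0711 (adjusted 0.124). The difference between these differences was 0.150 points (permutation test, p = 0.816). In the 5 batches that held both genotypes the double-mutant mean was higher by 0.520 to 2.17 points, in 5 of 5. The other 3 batches held 1 genotype each. In CITE-seq the shares were 1.53% and 1.22% in control and 3.44% and 3.26% in double-mutant glands, without overlap of 2 and 2 glands. These libraries held cells of both sexes each, and whether all their cells are of the labelled genotype was not tested. A share of all cells also moves with the epithelial cells recovered.

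Among class II cells the C1q-negative share differed between genotypes by less than the spread between glands. It was 11.9% ± 8.2 (SD, n = 12) in control and 10.2% ± 6.9 (SD, n = 14) in double-mutant glands, −1.66 points (permutation test, p = 0.575, adjusted 0.670). Control glands ranged from 0% to 28.6% and double-mutant glands from 0% to 23.8%, and within batches the difference was positive in 3 and negative in 2 of 5. C1q-positive cells were likewise a larger share of double-mutant than of control glands (9.87% ± 5.31 and 4.04% ± 3.66, described without a test). By stage, control glands had 0.203% members at P40 and 0.571% at P90 (exact permutation p = 0.0281, adjusted 0.0657), where stage and batch cannot be told apart, and double-mutant glands 1.01% and 1.52% (exact permutation p = 0.409, adjusted 0.572). Female and male glands had 0.859% ± 0.684 (n = 14) and 0.861% ± 1.22 (n = 12), with sex as labelled (permutation p = 0.991).

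**Figure D4:**
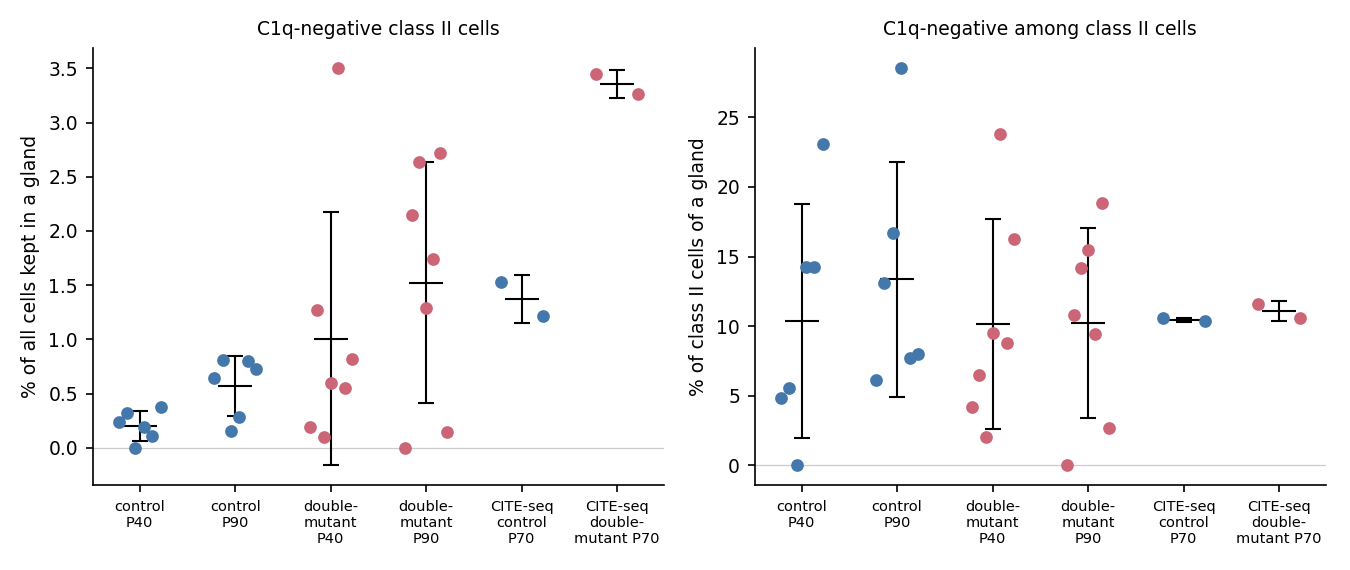
Share of C1q-negative class II cells among all cells of a gland (left) and among class II cells (right), in percent, by group. Points are glands and bars mean ± SD per group, and the double-mutant glands spread up to 3.51% on the left, while the groups lie over the same range on the right.

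To ask whether members themselves differed by genotype, their UMIs were summed per gland. In Drop-seq only 6 glands had 10 or more members and none of these was a control gland, so Drop-seq glands with at least 5 members were compared, 4 control glands, all at P90 and from 2 batches, and 10 double-mutant glands. They held 4059 to 16208 UMIs each, and 151 genes had enough counts for the test, which included sex and stage, 35 of them in the lists. Of these 151 genes 3 passed the quasi-likelihood test of edgeR after Benjamini-Hochberg adjustment, a background of 1.99%, 2 higher and 1 lower in double-mutant glands, and 1 of the 3 (H2-Eb1) is read by the rule. At an unadjusted p under 0.05 there were 18 genes, and DESeq2 called 6. No gene of the DC1, DC2 and mature CCR7 lists had the counts to enter the test, so a difference in them by genotype was not detectable at this depth. Of the shared dendritic cell genes Cst3 entered, with a log2 fold change of −0.38 ± 0.51 (SE).

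H2-Eb1, which encodes the β chain of the I-E class II molecule, was among these 3 genes. Only its RNA was compared here, and the I-A/I-E tag is not read as a measure of I-E protein. The 4 control glands held 3, 0, 3 and 6 UMIs in 7, 8, 6 and 6 members, or 0 to 582 normalized CPM, whereas the 10 double-mutant glands held 13 to 88 UMIs, or 2215 to 7269 CPM. The groups did not overlap. The fitted log2 fold change was 3.63 ± 0.57 (SE), or 2.69 with the log2 number of members as a covariate. Because the rule reads H2-Eb1 as 1 of 3 chains, and so can admit members through it, this difference is a description and no p is read from it. With H2-Eb1 unread, 135 in place of 151 Drop-seq double-mutant cells and 40 in place of 41 control cells were members. Its level was therefore also taken in C1q-positive cells, over all cells kept and in members chosen with H2-Eb1 unread. The gate of C1q-positive cells reads H2-Eb1 as well.

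H2-Eb1 was set against H2-Ab1, the β chain of I-A, which is encoded nearby and counted in the same cells. In Drop-seq control glands with members, H2-Eb1 reached 0 to 88.9 UMIs per 100 H2-Ab1 UMIs in members, with a median of 3.53, and lay under 10 in 8 of 11 glands. In double-mutant glands it was 24 to 131, with a median of 58.3. C1q-positive cells, which had more counts, gave 0 to 51.3 (median 4.13, under 10 in 9 of 12 glands) in control and 38.6 to 120 (median 57.2) in double-mutant glands. Over all cells kept, which no clause on class II selects, the medians were 3.90 (0 to 59.5) and 54.4 (36.7 to 123). Of the H2-Ab1 UMIs of all Drop-seq cells, C1q-positive cells held 3536 of 4788 in control and 7797 of 10361 in double-mutant glands. The low ratio was thus seen in members, in C1q-positive cells and in the whole gland, but the whole-gland values rest largely on C1q-positive cells and are not independent of them. It was not found in every control gland, since control P40 replicates 2 and 6 stood at 50.5 and 59.5 over all cells and at 51.2 and 51.3 in C1q-positive cells, inside the range of the double-mutant glands.

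When members were chosen by H2-Aa and H2-Ab1 with H2-Eb1 unread, the medians were 3.53 per 100 H2-Ab1 UMIs in control and 54.3 in double-mutant members. Over all cells, the double-mutant mean was higher in 5 of 5 mixed batches, by 13.8 to 87.4, and the groups did not overlap in 4 of these. In CITE-seq members the ratio was 20.4 and 28.6 in control and 49.8 and 54.4 in double-mutant glands, so its control glands lay above most Drop-seq control glands. Each CITE-seq library held cells of both sexes, and whether all its cells are of the labelled genotype was not tested. The cause of the difference between glands was not tested.

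**Figure D5:**
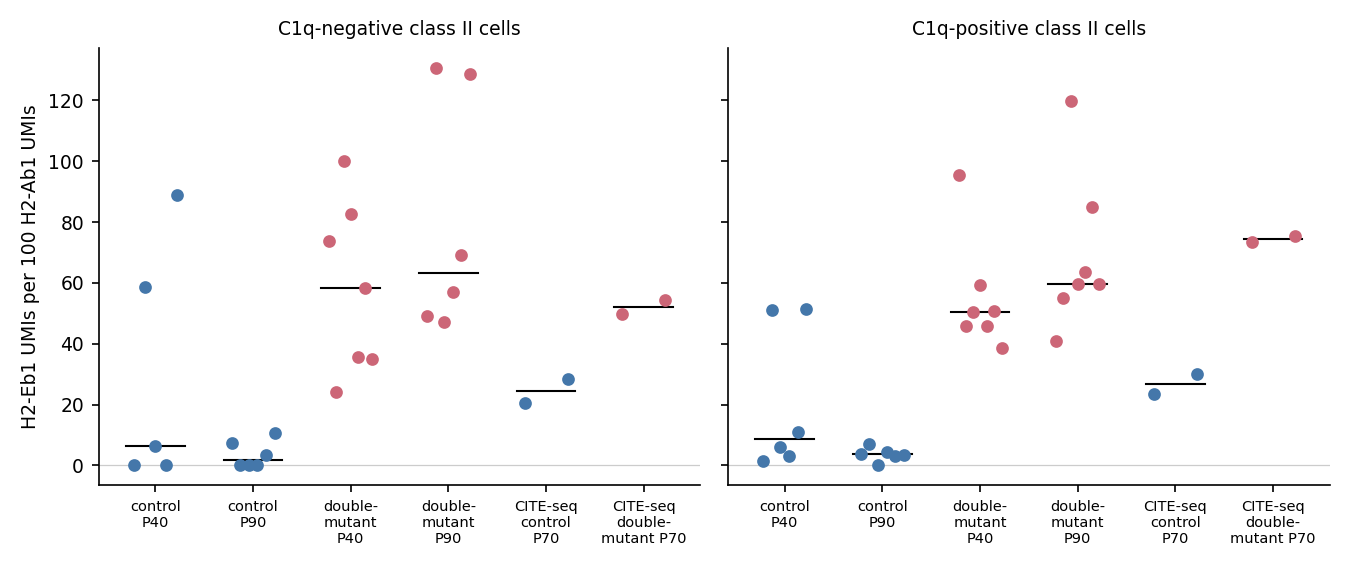
H2-Eb1 UMIs per 100 H2-Ab1 UMIs in C1q-negative (left) and C1q-positive (right) class II cells, with a point per gland that has a value and a line at the median of each group. Most control glands of Drop-seq lie near 0, control P40 replicates 2 and 6 lie above 50, the CITE-seq control glands lie between 20.4 and 30.1 and the double-mutant glands lie at 24 or above.

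The other genes that passed were secretory. Wfdc18, which encodes a secreted epithelial protein, had 2 UMIs in the 4 control glands and 174 in the 10 double-mutant glands of the test (log2 fold change 5.17 ± 1.24, edgeR, adjusted p = 0.0446). Control P40 replicate 2, which had too few members for the test, held 84 Wfdc18 UMIs, 83 of them in 1 member, so that all Drop-seq control members held 90 against 177 in double-mutant members. Smgc, a submandibular mucin-type protein, had 910 and 23 UMIs (−8.09 ± 1.84, adjusted p = 0.0446), but 790 of these lay in 1 member of control P90 replicate 2 and 106 in 1 member of replicate 6. Double-mutant P40 replicate 1, also outside the test, held 344 Smgc UMIs, 341 of them in 1 member. In cells outside the gate the median level of Wfdc18 was 878 CPM in control and 15555 CPM in double-mutant glands, which moved with its level in members, while that of Smgc was 1733 CPM in control and 3220 CPM in double-mutant glands, opposite to the fitted direction. The part of free RNA in these values was not tested. Leaving out 1 gland at a time ended the call of Wfdc18 for 9 of 14 glands and that of Smgc for 10 of 14, and the log2 number of members as a covariate ended both (adjusted p = 0.137 and 0.157). The next genes of the lists were Dcpp3, Dcpp2 and Dcpp1 with 0 UMIs in the 4 control glands and 104, 148 and 173 in the double-mutant glands (adjusted p = 0.157, 0.182 and 0.226). Over all Drop-seq members, P40 control glands included, the order of Dcpp3, Dcpp2 and Dcpp1 was the opposite, with 2236, 2946 and 2579 UMIs in 8, 9 and 6 control members and 104, 151 and 181 UMIs in 45, 53 and 47 double-mutant members. The lists' further genes were Igkc with 1 and 3663 UMIs, Jchain with 0 and 1413, Igha with 5 and 2842 and Actb with 106 and 1128, for which the adjusted p was 0.349 each.

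By stage, 0 of the 151 genes passed in edgeR (background 0%, 7 genes at an unadjusted p under 0.05, 0 in DESeq2), and by sex 0 passed (background 0%, 7 genes at an unadjusted p under 0.05, 1 in DESeq2). Among the list genes, Apoe had a log2 difference of 3.11 ± 1.06 (SE) for P90 against P40 (edgeR, adjusted p = 0.711) and Ctsb, a cathepsin, 1.6 ± 0.62 (adjusted p = 0.784).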

How the data were processed

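Drop-seq tables of 26 glands and CITE-seq tables of 4 glands, the latter with 61 antibody tags, were used. The authors aligned reads with STAR to mm10 and made the deposited tables of UMI counts with Drop-seq tools, and removed human spike-in cells. Whether the deposited antibody tag counts are UMIs or reads was not settled here. Barcodes with at least 100 genes and under 15% mitochondrial counts were kept. No doublet caller was run, and the rule left out cells with a UMI of 5 lineage genes alone, so that 17 members held Epcam and 12 were plasma cell-like.

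The members and gene lists were chosen with earlier results of these data known. Genes were named from those past a test, list genes next by p (up to 8), the 15 highest and 15 lowest ratios to C1q-positive cells at 100 CPM or more, and the lists, and proteins from a list of dendritic, B and myeloid cell proteins. Member counts were summed per gland and tested in edgeR 4.0.16 by quasi-likelihood with Benjamini-Hochberg adjustment, with DESeq2 1.42.0 as an alternative. The planned test needed 10 members per gland, which no Drop-seq control gland had, so a minimum of 5 members is reported. Shares were compared by permutation tests (100000 resamples, or exact) in scipy 1.17.1. Intervals are Clopper-Pearson at 95%, a count of 0 allows 3 counts, and both cover counting error only. Members were clustered in scanpy 1.11.5 (1000 variable genes, 15 components, 15 neighbours, Leiden resolution 1.0), with at least 3 markers at 2-fold in 10% of cells for a name. Clusters 1 and 4 met this with secretory genes and were not named. Tests were checked on simulated data. Results for 1 gene are not reported here.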

Additional observations from a re-analysis of the deposited data

Results flagged for a closer look

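In double-mutant P40 replicate 5, members were 3.51% of cells, far above the other 6 glands of its group. Double-mutant P40 replicate 1 went against its sex label. In it, C1q-positive cells held 95.4 H2-Eb1 UMIs per 100 H2-Ab1 UMIs, also far above the others of its group. Chance sets a gland apart in this way in about 1 in 20 groups.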

How the results depend on the processing

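The higher member share in double-mutant glands kept its direction and an unadjusted p under 0.05 under the alternatives run, but its size was 0.536 points with cells thinned to 500 UMIs, 0.576 with at least 5 Cd74 UMIs and 1.71 with 1 C1q UMI allowed. Leaving out each gland gave 0.706 to 0.976 points. The C1q-negative share of class II cells turned to 0.508 points with at least 5 Cd74 UMIs, 3.47 points within batches, a log odds ratio of 0.0556 in a mixed model and 1.70 points without clusters 1 and 7 (led by Dcpp and immunoglobulin genes, while the Smgc-led cluster 4 stayed in), none with a p under 0.05, and was −2.74 to −0.143 with a gland left out. The sex difference in member share turned to −0.162 with 1 C1q UMI allowed, −0.0895 with at least 5 Cd74 UMIs and −0.0606 with cells thinned to 500 UMIs, and was −0.238 to 0.139 with a gland left out. The stage difference in control glands was 0.333 with at least 5 Cd74 UMIs (exact permutation p = 0.0584), 0.187 with thinned cells (p = 0.342) and 0.256 without clusters 1 and 7 (p = 0.0758), and 0.320 to 0.450 with a gland left out, where its unadjusted p exceeded 0.05 without control P40 replicates 3 or 5 or control P90 replicates 1, 2, 5 or 6. In double-mutant glands the range was 0.319 to 0.935.

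Of the 3 genes by genotype, DESeq2 gave 6, RLE size factors 1, the number of members as a covariate 0 (15 at an unadjusted p under 0.05), no filter 10, leaving out the 3 libraries that stood apart 1, and leaving out clusters 1 and 7 gave 1. Leaving out a gland gave 1 to 4, with 1 without control P90 replicates 5 or 6, double-mutant P40 replicates 2 or 6, or double-mutant P90 replicates 2, 3 or 5. H2-Eb1 then ranged from 3.30 to 3.94, Wfdc18 from 4.62 to 5.72 and Smgc from −8.80 to −4.91. By sex, DESeq2 and no filter gave 1 each and a gland left out 0 to 1, the latter without double-mutant P90 replicate 5. By stage the counts were 0. With a gland left out, surface differences were 2.90 to 4.22 points (CD11c), 1.28 to 2.24 (CD103), 0.532 to 1.13 (Ly6C), 0.760 to 1.40 (CD11b) and −10.8 to −3.30 (I-A/I-E). The cause of these changes was not tested.

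The replicate block left 2 genes by genotype, H2-Eb1 at 3.78 and Wfdc18 at 5.91, and Smgc at −6.63 with an adjusted p of 0.822 in edgeR, and 0 by stage and by sex. Same-numbered glands of different groups did not deviate together (r −0.267 to 0.422 over 10 pairs, median −0.0171), so the numbers were not taken as pairs. The alternatives with H2-Eb1 unread, without clusters 1 and 7, with each gland left out of the shares and with CITE-seq glands included were chosen after seeing the data. The tests with at least 20 members per gland were not run, and those with at least 10 could not be made by genotype. Depth (a median of 551.5 UMIs per member) and the 4 control glands of the gene test, all at P90, both limit these results.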

Other observations

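Among gene groups not described above, 10 of 13 S100 and actin genes were higher in members than in C1q-positive cells (median ratio 1.46), while 17 of 18 immediate early and heat shock genes (0.635) and 9 of 10 proliferation genes (0.505) were lower. Class I antigen presentation was split, with 7 of 13 genes higher. Monocyte genes were split as well, with 6 of 12 higher and 6 lower (median ratio 1.04). Endothelial genes were higher in 4 of 5, at a summed 211 CPM, and fibroblast genes in 1 of 5, at 33.1 CPM. Of 12 T, NK and innate lymphoid genes 2 were higher and 8 were at 0 in members.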
